A study of Mus musculus with 78 samples.

Results

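Polysome RNA was compared with total RNA of the same lysates in mouse CD8+ T cells held for 3 h in complete medium, the Control of a nutrient deprivation experiment. The comparison takes 6 of the 78 libraries of the series, 3 of total RNA and 3 of polysome RNA, and every gene of the count table that passed a filter on low counts, 13072 of 14695. The cells were primary cells of C57BL/6J mice, taken from lymph node and spleen, on day 3 of activation, with no drug or solvent named for these groups. Each lysate was split, with 50 µL kept as input for total RNA and 400 µL layered on a sucrose gradient of 15 to 45%. Fractions 9 to 13 of that gradient were combined in equal volume as polysome RNA, so mRNAs on lighter fractions are not in these libraries. Cycloheximide, which holds elongating ribosomes in place, was in the buffers. The libraries of both kinds were made from total RNA rather than polyadenylated RNA. The labels do not say whether the 3 lysates came from separate cultures or animals. The spread that p-values measure here is therefore only that between libraries, which may be technical. For the Control ratio it was estimated over all 36 total RNA and polysome libraries of the nutrient experiment, not these 6 alone.

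In a sucrose gradient an mRNA moves further down the more ribosomes it carries. How many it can carry is bounded by the length of its coding sequence, and how many it does carry depends on how often a ribosome starts and how fast it moves. RNAs that are not translated in the cytosol stay largely near the top of the gradient or in the nucleus. mRNAs with a 5′ terminal oligopyrimidine tract (TOP mRNAs), which encode ribosomal proteins and elongation factors, are known to shuttle between ribosome-free particles and polysomes under the control of the kinase mTOR and the binding protein LARP1. Activated CD8+ T cells are known for high protein synthesis, with granzymes, cytokines and the translation machinery among their abundant mRNAs.

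Values below are log2 ratios of polysome over total RNA with the fit's standard error (±). Levels are counts per 1000000 counts (CPM), on library totals scaled by TMM, a method that takes most genes as unchanged, so each ratio is relative to the bulk of genes. A gene is called higher or lower at a Benjamini-Hochberg adjusted p under 0.05 in edgeR's quasi-likelihood test over all genes. Total RNA libraries held 25705095 to 30637485 counts and polysome libraries 38298779 to 40846852. The 9 of 10 T cell markers in the table summed to 2747 to 3385 CPM and both CD8 genes, Cd8a and Cd8b1, to 192 to 288 CPM. Summed B cell markers (3 of 7 in the table) reached 15.0 to 28.2 CPM, myeloid markers (2 of 9) 11.1 to 16.0 CPM and CD4 lineage markers (2 of 3, without Cd4) 6.99 to 12.6 CPM. The 2 of 4 NK markers in the table summed to 370 to 661 CPM, nearly all of it Nkg7, a granule gene that activated CD8+ T cells are known to express, and Ncr1 and Klrb1c were not in it. No dendritic or erythroid marker was in the table. The part of these markers in the results was not tested. The libraries of lysate 1 stood apart in both kinds of RNA, with residuals that correlated at 0.73 with each other. Their correlations with the other lysates were -0.54 to -0.34. Residuals of the 3 libraries of a group sum to 0 for each gene, so these had to be negative on the whole.

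Of the 13072 genes, 65.4% were called, 4892 higher in polysome RNA (37.4%) and 3658 lower (28%). The distribution had a long lower tail. Only 85 genes (0.65%) were called and more than 2-fold higher, against 1717 genes (13.1%) called and more than 2-fold lower. The 5th percentile of the ratios lay at -1.90, a level 3.72-fold higher in total RNA, and the 95th at 0.70, a level 1.63-fold higher in polysome RNA. For 67.1% of genes the 3 polysome libraries did not overlap the 3 total RNA libraries. The libraries hold RNA of many cells, so fewer cells with an mRNA on polysomes and fewer ribosomes on each mRNA cannot be told apart.

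The tail differed in make-up from the bulk. RefSeq gives a gene class to 11556 of the genes tested. Of 10515 protein-coding genes 4657 were higher and 2247 lower, with a median of 0.19, beside 0.09 over all genes tested. Of 546 long non-coding RNA genes 8 were higher and 361 lower, with a median of -1.19. Of 295 pseudogenes 33 were higher and 166 lower, with a median of -0.67, and of 50 small nucleolar RNA (snoRNA) genes 1 was higher, Gm24339, and 44 lower, with a median of -2.29. Most snoRNA entries were rare, and the 68 in the count table summed to 0.00994% of total RNA counts. Of 22 snoRNA genes grouped after their values were seen, a stricter filter (CPM of at least 5 in 3 libraries) kept 3, all lower. Joining segments of the antigen receptor genes, which are spliced onto a constant region only in a rearranged transcript, had 26 of 36 lower and none higher. The 31 segments of the T cell receptor alpha locus, a group chosen after its values were seen, had a median of -1.73, but each was rare, with total RNA means of 0.16 to 1.02 CPM. The stricter filter kept none of them, and on the 6 libraries alone 12 were lower against 22 here.

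**Figure D1:**
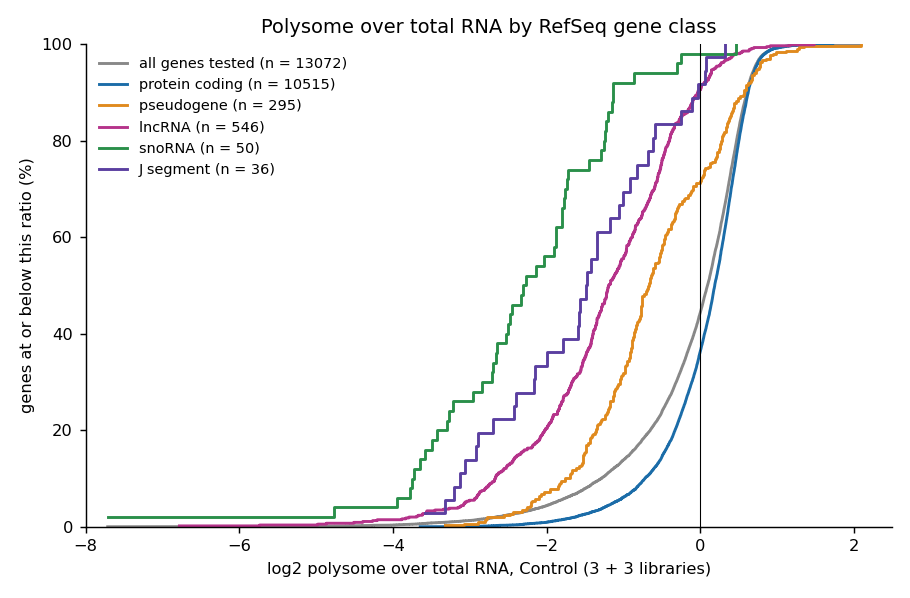
Cumulative share of genes (y axis, %) at or below each log2 ratio of polysome over total RNA in Control (x axis), for all 13072 genes tested and for 5 RefSeq gene classes. The curves of snoRNA genes (median -2.29) and long non-coding RNA genes (median -1.19) lie far to the left of protein-coding genes (median 0.19).

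Non-coding RNAs filled a much smaller part of the polysome libraries than of total RNA. The 7SK RNA Rn7sk, a nuclear regulator of transcription elongation, took 1.10% of total RNA counts and 0.00787% of polysome counts. The 18 snoRNA host entries, whose introns carry snoRNAs, summed to 0.142% and 0.0383%. Of these entries 17 were lower and none higher, and 1 of 2 entries named Snhg4 was not called. Rc3h2, the host that also encodes an RNA-binding protein of cytokine mRNA decay, was the nearest to 0 at -0.48 ± 0.10. Of 12 nuclear and structural RNAs 11 were lower (median -1.26), among them Oip5os1, known as Cyrano, at 131, 131 and 135 CPM in total RNA and 31.0, 34.4 and 31.1 CPM in polysome RNA (-2.04 ± 0.09, adjusted p = 1.83e-20). Dleu2 was lower too (-2.15 ± 0.19), while Tug1 was at 0.06 and not called. The counting setting for strand is not given in the sources used here, so reads of overlapping antisense genes cannot be told apart.

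Host transcripts of microRNAs were measured, not the mature microRNAs. Those of Mir142 and Mir155, a pair of microRNAs prominent in lymphocytes, are shown with their seed, bases 2 to 8, in capitals (RefSeq, GRCm38.p6).
mmu-miR-142a-3p: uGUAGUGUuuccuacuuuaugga
mmu-miR-155-5p: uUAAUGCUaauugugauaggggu
The seeds of these microRNAs differ. Mir155hg stood at 60.1, 56.7 and 61.4 CPM in total RNA and 7.80, 8.49 and 7.42 CPM in polysome RNA, a ratio of -2.91 ± 0.20 (adjusted p = 9.96e-13). Mir17hg, host of the miR-17 cluster, had 10.8, 11.3 and 11.7 CPM and 2.20, 1.87 and 2.13 CPM (-2.45 ± 0.19). Both were far below their total RNA level in each polysome library. Of 6 entries in the list of these hosts 5 were lower, also Mir142hg (-4.28 ± 0.13) and Mir22hg (-0.82 ± 0.14). Another was the rare Mirt1 (-0.49 ± 0.22), which the list holds but which is not established as a microRNA host. Its call was lost without replicate 2 (adjusted p = 0.136) or replicate 3 (adjusted p = 0.337). The entry not called, at 0.48, is one that RefSeq classes as miRNA.

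Ribosomal protein mRNAs made up 13.2% ± 0.429 of total RNA counts and 6.90% ± 0.197 of polysome counts (SD, n = 3). All 32 small subunit members were lower (median -0.93), as were 48 of 49 large subunit members (median -0.90), beside 28% of all genes. The first bases around the annotated start are shown because the TOP motif, a C followed by pyrimidines, defines this class of mRNA. Each line gives 30 bases from RefSeq (GRCm38.p6), in which base 11 is the annotated start and capitals mark the longest run of a C and at least 4 further C or T.
Rps12 (chr10:23787190-23787219, minus strand): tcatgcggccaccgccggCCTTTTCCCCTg
Rps27 (chr3:90213629-90213658, minus strand): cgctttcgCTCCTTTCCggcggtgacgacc
Rpl41 (chr10:128549149-128549178, minus strand): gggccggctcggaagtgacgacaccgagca
Rpl7a (chr2:26910797-26910826, plus strand): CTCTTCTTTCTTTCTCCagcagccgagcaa
Rpl27 (chr11:101442235-101442264, plus strand): ctgttcctgtctgctgctcgtgctgctaat
Eef1a1 (chr9:78481705-78481734, minus strand): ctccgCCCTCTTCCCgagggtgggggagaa
Of 60 ribosomal protein genes with a promoter entry, 14 (23.3%) had C and 4 pyrimidines exactly at the annotated start, against 2.81% of 8462 protein-coding genes outside the TOP lists. Within 5 bases of the start on the same strand the shares were 48.3% and 23.9%, and anywhere in the 30 bases 66.7% and 42.2%. Outside these lists, genes with the motif at the start had a median ratio of 0.13 and genes without it 0.19. Annotated starts can be off by some bases, and a match of letters is a description only.

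The spread within the ribosomal protein group was wide. Rps12 and Rplp1, a stalk protein of the large subunit, were the lowest of the abundant members. Rplp1 had 1881, 2247 and 2063 CPM in total RNA and 249.6, 264 and 347 CPM in polysome RNA (-2.85 ± 0.17, adjusted p = 6.81e-14). Rps20 had 1579, 1804 and 1761 CPM and 294, 354 and 341 CPM (-2.38 ± 0.11), and Rpl12 2541, 2973 and 2908 CPM and 559.8, 628 and 609 CPM (-2.23 ± 0.10). Of the genes whose starts are printed, Rpl41 was at -2.41 ± 0.13 and Rps27 at -2.27 ± 0.09. Rpl7a was at -0.31 and called lower, and Rpl27, at -0.14, was the member not called. Rps27a, which encodes a fusion of ubiquitin and a ribosomal protein, was lower by less than most, at -0.62 ± 0.08. Some members were rare in these counts, with 4 of 81 below 10 CPM in total RNA, such as Rpl24 at 1.36, 1.20 and 0.859 CPM and Rps10 at 8.68, 9.63 and 9.52 CPM. These genes share sequence with processed pseudogenes, so their values are less certain. Without the 4 rare entries the median of the remaining 77 was -0.88.

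**Figure D2:**
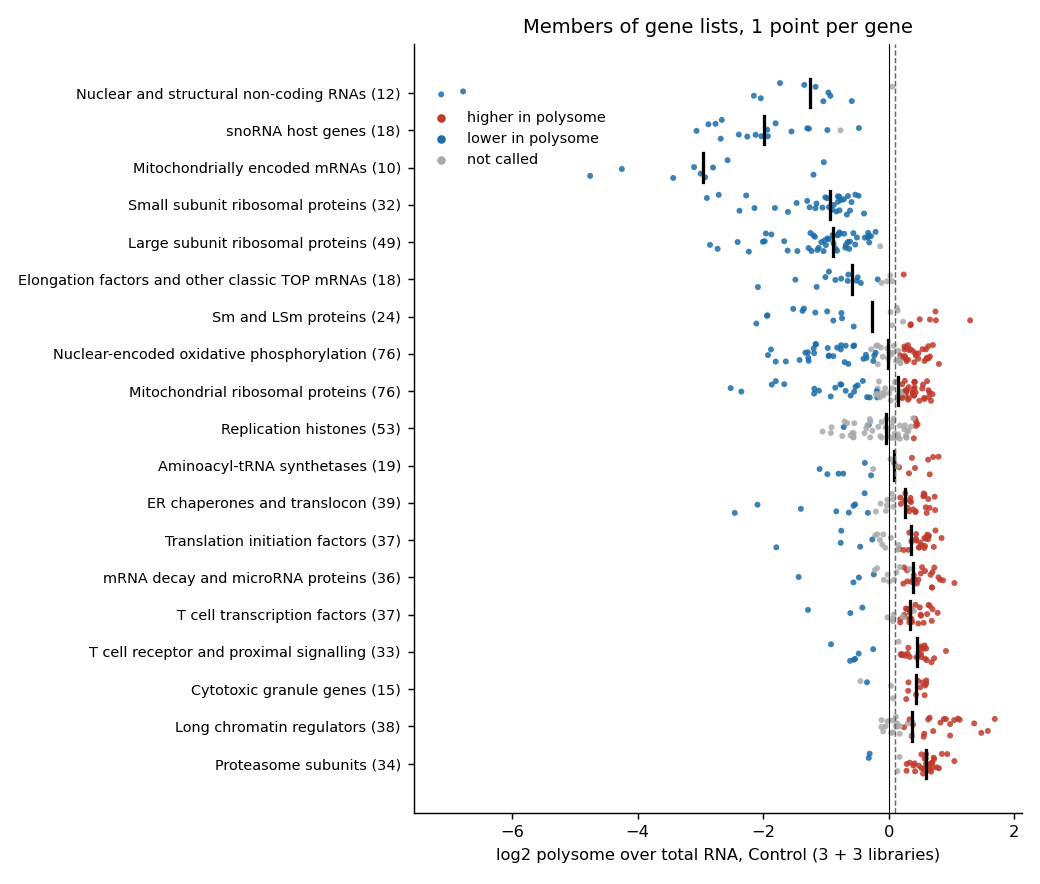
Log2 ratio of polysome over total RNA (x axis) of each measured member of 19 gene lists (y axis, members tested in brackets), with points in red for members called higher, in blue for members called lower and in grey for members not called, black bars for list medians and a dashed line at the median of all genes (0.09). Ribosomal proteins lie to the left (medians -0.93 and -0.90) and proteasome subunits to the right (median 0.59), while oxidative phosphorylation spans both sides.

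Among the other TOP mRNAs 13 of 18 were lower and 1 higher (median -0.58). The elongation factors Eef2, which moves the ribosome along the mRNA, and Eef1g were lower at -1.15 ± 0.07 and -0.95 ± 0.05. The poly(A)-binding protein mRNA Pabpc1 had 758, 725 and 706 CPM in total RNA and 469, 291 and 328 CPM in polysome RNA (-1.01 ± 0.17, adjusted p = 8.75e-06), with lysate 1 the highest in polysome RNA. Btf3, the member called higher, was at 0.24 ± 0.07, and that call was lost with RLE size factors (adjusted p = 0.0764), DESeq2 (adjusted p = 0.0654), a stricter filter (adjusted p = 0.0974) and the 6 libraries alone (adjusted p = 0.0876).

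mRNAs of translation initiation factors mostly lay the other way, with 23 of 37 higher and 5 lower (median 0.36, beside 37.4% of all genes higher). With the lysate as a block 8 were lower, and 11 with the block on the 6 libraries alone. Eif3b, a core subunit of eIF3, had 271, 275 and 267 CPM in total RNA and 528, 462 and 466 CPM in polysome RNA (0.84 ± 0.10, adjusted p = 1.52e-09). Eif3j1 was higher as well, at 0.74 ± 0.07. The lowest member was Eif4ebp1, which encodes 4E-BP1, the inhibitor of the cap-binding protein eIF4E. It had 167, 177 and 171 CPM in total RNA and 44.3, 51.1 and 53.5 CPM in polysome RNA (-1.79 ± 0.09, adjusted p = 4.64e-19), with no overlap between the groups. The other 4 lower members were Eif2a (-0.77 ± 0.06), Eif4e3 (-0.76 ± 0.11), Eif4a2 (-0.46) and Eif3l (-0.26).

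The 19 aminoacyl-tRNA synthetases, the enzymes that charge tRNAs, divided, with 8 higher and 6 lower. Their median of 0.09 ranged from -0.01 to 0.13 over the alternatives. Eprs1, the glutamyl-prolyl synthetase, had 515, 399.7 and 447 CPM in total RNA and 226, 208 and 200.4 CPM in polysome RNA (-1.10 ± 0.10, adjusted p = 4.76e-12). Qars1 had 275, 251 and 261 CPM and 135, 134 and 130.3 CPM (-0.98 ± 0.06, adjusted p = 1.9e-16). Hars1 went the other way, with 214, 207 and 221 CPM and 348, 382 and 383 CPM (0.79 ± 0.06, adjusted p = 4.47e-14). A split chosen after these values were seen set apart the synthetases of the multi-tRNA synthetase complex, a particle that holds several of these enzymes. Of its 7 measured synthetases 5 were lower, Eprs1, Qars1, Mars1 (-0.80 ± 0.09), Lars1 (-0.73 ± 0.18) and Rars1 (-0.38), and the median was -0.73. Lars1 was not called with the 6 libraries alone (adjusted p = 0.0560). Of 12 synthetases outside the complex 7 were higher and 1, Tars1, was lower (-0.28), with a median of 0.24. The scaffold mRNA Aimp2 was higher (0.63), and the other two, Aimp1 and Eef1e1, were not called.

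A ranking added after the data were seen took the lowest ratios among RefSeq protein-coding genes at a mean of at least 10 CPM, leaving out ribosomal proteins, mitochondrial genes and replication histones. Rps27l, a relative of Rps27 that p53 is known to induce, had 177, 219 and 223 CPM in total RNA and 21.2, 23.6 and 21.6 CPM in polysome RNA (-3.22 ± 0.14, adjusted p = 1.04e-18). Ap3s1, a small subunit of the AP-3 adaptor of vesicle transport, had 73.0, 88.2 and 83.7 CPM and 7.85, 11.0 and 9.07 CPM (-3.13 ± 0.12). Dnajc19, a chaperone component of the mitochondrial import motor, had 24.6, 28.7 and 28.8 CPM and 3.31, 4.07 and 3.31 CPM (-2.94 ± 0.15). The lowest total RNA library exceeded the highest polysome library by several fold for each of these genes. Dph3 (-2.90 ± 0.14), an iron-binding protein of diphthamide synthesis, Tma7 (-2.87 ± 0.13), a ribosome-associated protein, and Bola3 (-2.83 ± 0.14), a factor of iron-sulfur cluster assembly, followed. The list went on with Tmem134 (-2.72 ± 0.10), Svbp (-2.68 ± 0.15), a peptide that binds vasohibin, and Pigp (-2.64 ± 0.14), an enzyme subunit of GPI anchor synthesis. Smim29 (-3.18 ± 0.15) and Smim10l1 (-2.75 ± 0.10) belong to genes named for small integral membrane proteins. Of 19 such Smim genes, grouped after their values were seen, 13 were lower and none higher, with a median of -0.98. Protein and transcript lengths were not analysed here.

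**Figure D3:**
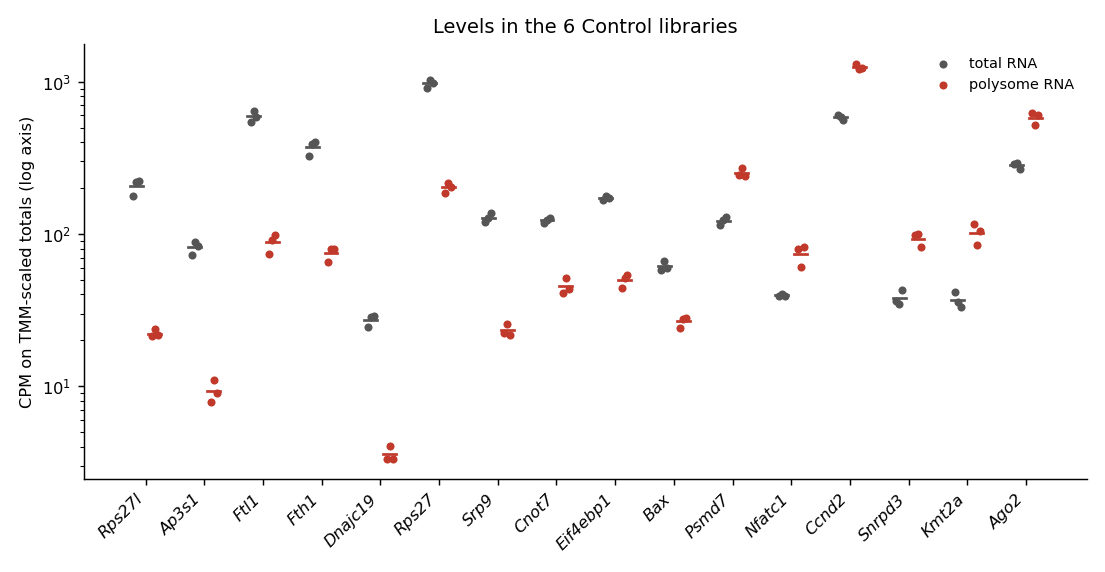
Level in each of the 3 total RNA (grey) and 3 polysome (red) Control libraries, in CPM on a log axis, for 16 genes described in the text, with short bars for the means. For each gene shown the 3 polysome libraries lie wholly below or wholly above the 3 total RNA libraries, from Rps27l (-3.22) to Kmt2a (1.47).

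Iron genes held some of the largest differences. Ftl1 and Fth1 encode the ferritin chains that store iron, and a hairpin near the 5′ end of both mRNAs is known to bind iron regulatory proteins. Ftl1 had 546, 645 and 585 CPM in total RNA and 74.3, 91.5 and 98.2 CPM in polysome RNA (-2.75 ± 0.11, adjusted p = 1.11e-21). Fth1 had 326, 389 and 400.2 CPM and 65.1, 80.2 and 79.2 CPM (-2.31 ± 0.09, adjusted p = 1.48e-21). The mRNA of the transferrin receptor Tfrc, which takes iron up, had 1148, 1299 and 1323 CPM and 812, 868 and 837 CPM (-0.58 ± 0.10). All 3 were lower without overlap, the ferritins far more than Tfrc. The iron regulatory protein genes differed, with Ireb2 higher, 37.9, 34.9 and 34.6 CPM against 80.8, 70.8 and 65.6 CPM (1.02 ± 0.15), and Aco1 lower (-0.33). Of 8 measured iron genes 3 were higher and 4 lower, the third of the higher ones, Slc11a2, with overlapping libraries and a call lost in the 6 libraries alone (adjusted p = 0.290).

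Selenoprotein mRNAs, whose translation reads a UGA codon as selenocysteine, had 8 of 18 higher and 8 lower. Each count is 44.4%, where 44.3% of protein-coding genes were higher and 21.4% lower. Selenow had 138, 161 and 148 CPM in total RNA and 24.8, 27.5 and 30.3 CPM in polysome RNA (-2.44 ± 0.10), and the glutathione peroxidase Gpx4 was at -1.95 ± 0.10. Txnrd1, a thioredoxin reductase, was higher at 0.76 ± 0.06. Sm and LSm proteins, which bind small nuclear RNAs and mRNA ends, had 7 of 24 higher and 12 lower (median -0.27). Lsm5 (-2.11 ± 0.17), Snrpf (-1.94 ± 0.09) and Lsm1 (-1.93 ± 0.09) were lowest. Snrpd3 stood at the other end with 36.2, 34.7 and 42.7 CPM and 97.9, 99.2 and 81.9 CPM (1.29 ± 0.11, adjusted p = 7.24e-13), one of the highest ratios of any gene.

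Genes of mitochondrial energy metabolism spanned both directions. The protein-coding class had 44.3% higher and 21.4% lower. All 10 measured mRNAs of the mitochondrial genome, which mitochondrial ribosomes translate, were lower (median -2.96), and their share of counts went from 1.28% in total RNA to 0.170% in polysome RNA. Of 76 nuclear-encoded genes of oxidative phosphorylation 28 were higher and 31 lower, and the median, -0.02, ranged from -0.11 to 0.04 over the alternatives. The higher count was 16 with the stricter filter of a CPM of at least 5 and 18 with RLE size factors or DESeq2. Atp5f1e, a small subunit of ATP synthase, had 132, 152 and 149 CPM in total RNA and 34.7, 39.9 and 39.5 CPM in polysome RNA (-1.92 ± 0.12, adjusted p = 7.55e-15). Ndufc1 (-1.88 ± 0.13) and Cox8a (-1.80 ± 0.11) were close to it. Sdhc, a membrane subunit of complex II, had 103, 104 and 106 CPM and 169.9, 191 and 183 CPM (0.80 ± 0.07, adjusted p = 3.73e-12), and Ndufa9 was at 0.70 ± 0.07. Mitochondrial ribosomal proteins were similar in make-up, with 34 of 76 higher and 22 lower (median 0.15), from Mrps24 at -2.52 ± 0.11 and Mrpl57 at -2.35 ± 0.17 up to 0.70.

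Proteasome subunit mRNAs had the largest share of higher members among the 43 lists, with 30 of 34 higher and 2 lower, Psmd8 (-0.32 ± 0.09) and Psmd1 (-0.31 ± 0.09). The higher share was 88.2%, beside 44.3% of protein-coding genes. Their share of counts was 0.689% ± 0.00729 in total RNA and 0.969% ± 0.0198 in polysome RNA (SD, n = 3). Psmd7, a lid subunit, had 114, 124 and 129 CPM in total RNA and 245, 273 and 239.6 CPM in polysome RNA (1.04 ± 0.06, adjusted p = 2.3e-16). Psmd11 (0.93 ± 0.06) and the ATPase Psmc5 (0.80 ± 0.07) were higher too. The ubiquitin gene Ubb was higher (0.58 ± 0.06).

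Genes of the secretory pathway and chaperones were mixed. In the protein-coding class 44.3% were higher and 21.4% lower. Of 39 genes of the endoplasmic reticulum 22 were higher (56.4%) and 9 lower (23.1%, median 0.25). The lowest were RNA-binding subunits of the signal recognition particle, the complex that brings ribosomes to the endoplasmic reticulum. Srp9 had 119, 127 and 137 CPM in total RNA and 22.4, 25.7 and 21.8 CPM in polysome RNA (-2.45 ± 0.09, adjusted p = 2.7e-22), Srp19 was at -2.09 ± 0.11 and Srp14 at -1.40 ± 0.10. Sec63, a translocon partner, was among the highest at 0.74 ± 0.07. Of 21 cytosolic and mitochondrial chaperones 11 were higher (6 on the 6 libraries alone) and 5 lower, the latter Hspe1 (-1.36 ± 0.10), Hspa8 (-0.60 ± 0.07), Hsp90ab1 (-0.44), Hsp90aa1 (-0.37) and the rare Hspa1b (-0.85 ± 0.33), which lost its call without any replicate (adjusted p = 0.0623, 0.0859 and 0.0783 without replicates 1, 2 and 3).

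Genes of T cell function were mostly higher in polysome RNA. Of 33 genes of the T cell receptor and its proximal signalling 24 were higher and 6 lower (median 0.44). That is 72.7% higher, beside 37.4% of all genes and 44.3% of protein-coding genes. On the 6 libraries alone 17 were higher, where 3851 of all 12471 genes tested were. The transcription factor Nfatc1 had 39.1, 40.4 and 38.9 CPM in total RNA and 79.6, 60.7 and 82.1 CPM in polysome RNA (0.91 ± 0.13, adjusted p = 2.04e-07), and Cd3e was at 0.68 ± 0.10. Lat, the adaptor phosphorylated by Zap70, had 248, 277 and 262 CPM and 123, 146 and 147 CPM (-0.92 ± 0.09, adjusted p = 5.08e-11), and the phosphatase Ptprc, known as CD45, was lower at -0.62 ± 0.10. The other lower members were Themis (-0.55 ± 0.07), Bcl10 (-0.54), Trbc2 (-0.48) and Lck (-0.25).

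Effector molecules followed the same pattern with exceptions. Granzymes and perforin summed to 0.839% ± 0.0682 of total RNA counts and 1.27% ± 0.158 of polysome counts (SD, n = 3), and 11 of 15 granule genes were higher (median 0.43). That count, 73.3% beside 44.3% of protein-coding genes, was 8 on the 6 libraries alone. Prf1, the pore-forming perforin, had 239.6, 271 and 266 CPM in total RNA and 336, 407 and 411 CPM in polysome RNA (0.57 ± 0.10, adjusted p = 9.86e-06). Of 15 cytokines 8 were higher (53.3%, beside 37.4% of all genes and 44.3% of protein-coding genes), among them Lta (0.48 ± 0.11) and Tnfsf11 (0.53 ± 0.12). Tnf was 1 of 2 lower cytokines, with 80.8, 89.3 and 83.8 CPM and 48.0, 53.2 and 56.1 CPM (-0.69 ± 0.09, adjusted p = 5.63e-08), the other being Il16 (-0.35 ± 0.09). The chemokines Ccl3 (0.62 ± 0.09), Ccl4 (0.60 ± 0.10) and Xcl1 (0.47 ± 0.12) were higher and Ccl5 lower (-0.67 ± 0.14).

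Receptors were divided as well. Il12rb2, the signalling chain of the interleukin 12 receptor, had 602, 662 and 639.6 CPM in total RNA and 1196, 1224 and 1257 CPM in polysome RNA (0.95 ± 0.09, adjusted p = 7.55e-11), and the interleukin 2 receptor chain Il2ra was at 0.69 ± 0.08. The interferon gamma receptor chain Ifngr2 was lower, at 3.80, 5.32 and 5.35 CPM and 1.65, 1.92 and 1.95 CPM (-1.39 ± 0.15), as was Socs1 (-1.33 ± 0.12), an inhibitor of cytokine signalling. Of 30 cytokine receptor and JAK-STAT genes 14 were higher, 46.7% beside 37.4% of all genes and 44.3% of protein-coding genes. The lower members numbered 4 (8 with the lysate as a block on the 6 libraries alone), Socs2 (-0.48) among them. Among 19 costimulatory and inhibitory receptors and activation markers 13 were higher, led by the inhibitory receptor Tigit (1.06 ± 0.15), and Pdcd1, the PD-1 gene, was at 0.65 ± 0.09. The lower members were Tfrc and Cd69 (-0.31 ± 0.09), and Cd69 was not called without replicate 3 (adjusted p = 0.0629). Of 13 genes of MHC class I and antigen processing 9 were higher (5 without replicate 3), H2-D1 at 0.63 ± 0.12 among them, and H2-T22 was far lower (-2.19 ± 0.08), though class I genes share sequence. Erap1 was the other lower member (-0.31 ± 0.10) and was not called without replicate 2 (adjusted p = 0.0529) or 3 (adjusted p = 0.0553).

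Transcription factors of T cells had 25 of 37 higher and 3 lower (median 0.34), and 19 of 35 higher on the 6 libraries alone. The first count is 67.6%, beside 44.3% of protein-coding genes. Bach2, a repressor of effector genes, had 52.8, 51.2 and 43.3 CPM in total RNA and 92.0, 72.0 and 88.4 CPM in polysome RNA (0.78 ± 0.14), and Ikzf3 (0.70 ± 0.08) and Foxo1 (0.68 ± 0.11) were higher. The lower members were Batf3, with 175, 188 and 177 CPM and 68.4, 70.4 and 82.4 CPM (-1.29 ± 0.10, adjusted p = 2.71e-13), its relative Batf (-0.42 ± 0.09) and Id2 (-0.61 ± 0.09). Of 21 immediate early genes 10 were higher (47.6%, beside 44.3% of protein-coding genes), such as the phosphatase Dusp4 (0.65 ± 0.09). Jund (-1.61 ± 0.24) and Btg1 (-0.75 ± 0.07) were lower. Genes named Zfp with a number, mostly zinc finger factors, had 62 of 294 higher and 96 lower (median -0.11). That is 21.1% higher and 32.7% lower, the latter beside 21.4% of protein-coding genes. The count of higher Zfp genes was 40 without replicate 3 and 33 with the stricter filter or on the 6 libraries alone. That of immediate early genes was 5 on the 6 libraries alone.

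The highest ratios were small beside the lowest. Of 38 long chromatin regulators 21 were higher and none lower (median 0.37). The higher count is 55.3%, beside 44.3% of protein-coding genes. On the 6 libraries alone 19 were higher, and with the lysate as a block on them 20 were higher and 3 lower. Leaving out libraries took the higher count down to 16. The methyltransferase Kmt2a had 41.4, 35.9 and 33.0 CPM in total RNA and 117, 84.7 and 105 CPM in polysome RNA (1.47 ± 0.19, adjusted p = 1.49e-07). The acetyltransferase Crebbp was at 1.13 ± 0.21. In both genes polysome replicate 2 was the lowest of the 3. Crebbp was not among the 12 highest ratios at a mean of at least 10 CPM. Members of those 12 were Fam98b (1.37 ± 0.19), a subunit of the tRNA ligase complex, and the ubiquitin ligase Cbl (1.27 ± 0.26), a brake on receptor signalling. Cmip (1.36 ± 0.18), Ankrd52 (1.25 ± 0.18) and the transcription factor Irf2 (1.24 ± 0.17) belonged to them too.

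Proteins of mRNA decay and the microRNA pathway had 23 of 36 higher and 4 lower (median 0.38), and 7 lower with the stricter filter or with the lysate as a block on the 6 libraries alone. The higher count is 63.9%, where 44.3% of protein-coding genes were higher and 21.4% lower. Ago2, which binds microRNAs, had 288, 292 and 266 CPM in total RNA and 621, 518 and 606 CPM in polysome RNA (1.04 ± 0.13, adjusted p = 2.89e-08). The stabilizing protein Elavl1 (0.86 ± 0.06) and the repressor Pum2 (0.79 ± 0.08) were higher. Cnot7, a deadenylase of the CCR4-NOT complex, had 118, 123 and 127 CPM and 40.8, 51.5 and 43.7 CPM (-1.44 ± 0.08, adjusted p = 6.87e-17), and the other lower members were Xpo5 (-0.56 ± 0.09), Rc3h2 and Pan2 (-0.24). Splicing regulators had 22 of 33 higher (66.7%) and 9 lower (27.3%), from Rsrp1 (-1.08 ± 0.10) to Hnrnpd (1.08 ± 0.11), with Srsf1 at 0.79 ± 0.06.

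Cell cycle and survival genes lay in both directions. Among protein-coding genes 44.3% were higher and 21.4% lower. Ccnd2, a D-type cyclin, had 603, 588 and 556 CPM in total RNA and 1313, 1221 and 1238 CPM in polysome RNA (1.11 ± 0.10, adjusted p = 2.46e-11), while Ccnd3 was lower (-0.26). Cdk6, its kinase partner, was at 0.91 ± 0.11, and E2f1, a transcription factor of S phase, at -1.25 ± 0.12. In all, 11 of 22 cyclins, kinases and inhibitors were higher and 4 lower, also Ccng1 (-0.76 ± 0.08) and Ccng2 (-0.31 ± 0.07). Of 13 BCL-2 family genes 5 were higher (Mcl1 0.26, Bak1 0.39, Bcl2l1 0.56, Bmf 0.59 and Bcl2l12 0.65). The lower members were Bax, with 57.7, 66.1 and 59.6 CPM and 24.2, 27.7 and 28.0 CPM (-1.20 ± 0.09), Bad (-0.68 ± 0.13) and the rare Bik (-1.09 ± 0.26). The family's median changed sign between alternatives, from -0.12 to 0.11.

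The mRNAs of replication histones are known to end in a stem-loop in place of a poly(A) tail, and the list of them used here also holds H1f0, a replacement histone. Of its 53 genes 5 were higher and 2 lower (11 and 7 with the lysate as a block on the 6 libraries alone), with H1f1 at 0.46 ± 0.08, and their share of counts was 0.407% ± 0.00948 in total RNA and 0.437% ± 0.0912 in polysome RNA (SD, n = 3). Their median was -0.09, -0.38 and 0.36 in lysates 1, 2 and 3, so the lysates differed in sign. Without polysome replicate 3 the higher count was 3, and without replicate 3 it was 2. The calls of H2bc14 and H2bc3 were lost without replicate 3 (adjusted p = 0.170 and 0.0679). The higher members beside these were H1f5 (0.42 ± 0.11) and H1f3 (0.40), and the lower ones H2bc27 (-0.72 ± 0.18) and H1f0 (-0.32 ± 0.09). Among variant histones, which are also made outside S phase, 2 of 10 were higher and 5 lower, with H2az2 at 42.2, 43.0 and 41.9 CPM in total RNA and 11.7, 13.8 and 13.7 CPM in polysome RNA (-1.70 ± 0.09) and Macroh2a1 at 0.60 ± 0.06.

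Polyamine and stress genes with short upstream reading frames (uORFs) held low and high members side by side. Odc1, the first enzyme of polyamine synthesis, had 705, 696 and 720.3 CPM in total RNA and 338, 386 and 341 CPM in polysome RNA (-0.99 ± 0.06, adjusted p = 2.28e-16), and Amd1 was lower (-0.56 ± 0.08). Azin1, which protects Odc1 protein from its antizymes, was higher, with 134, 114 and 123 CPM and 204, 196 and 184 CPM (0.66 ± 0.10). Of 16 mRNAs with uORFs reported to act in the stress response 5 were higher and 6 lower, among the latter Atf4 (-0.60), Cebpg (-1.12 ± 0.08) and Tmem60 (-2.06 ± 0.13), and Ppp1r15b, a phosphatase subunit for eIF2α, was higher (0.63 ± 0.06). The median of the uORF list ran from -0.11 to 0.05 and that of the polyamine list from -0.01 to 0.15 over the alternatives, so neither has a settled direction.

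Metabolic genes lay in both directions, as did the protein-coding class (44.3% higher and 21.4% lower). Glycolysis had 11 of 22 entries higher, 50% beside 37.4% of all genes, and 3 lower (5 lower with the lysate as a block or without polysome replicate 1, and 6 with the stricter filter), with Tpi1 at 1951, 1833 and 1867 CPM in total RNA and 3082, 3257 and 3214 CPM in polysome RNA (0.76 ± 0.06). The lower entries were Pfkp (-0.44 ± 0.10), Pdk1 (-0.37 ± 0.07) and Slc2a3 (-0.25 ± 0.10), the last with a call lost without any replicate (adjusted p = 0.0545, 0.144 and 0.0696). Cholesterol synthesis and its regulators had 15 of 27 higher and 5 lower (3 lower without replicate 1 and 2 lower without replicate 2). Insig1, which holds the SREBP pathway in the endoplasmic reticulum, had 361, 402 and 405 CPM and 163, 227 and 195 CPM (-1.0 ± 0.09, adjusted p = 3.34e-12). Amino acid transporters had a median of 0.10, beside 0.09 over all genes, and 6 were higher and 6 lower with the lysate as a block on the 6 libraries alone. Of the 14 genes 7 were higher, with Slc7a5, the leucine transporter, at 0.81 ± 0.09, and 3 lower, Slc7a3 (-0.61 ± 0.12), Slc38a2 (-0.33 ± 0.09) and Slc38a9 (-0.34 ± 0.13), whose call was lost without replicate 1 (adjusted p = 0.0718) or 2 (adjusted p = 0.235). In the cytoskeleton Actb was higher (0.67 ± 0.07) and Tmsb10, a thymosin that binds actin monomers, lower at 596, 779 and 655 CPM and 142, 175 and 169.6 CPM (-2.06 ± 0.13). Of 19 such actin genes 7 were higher and 4 lower, with a median whose sign changed between alternatives (-0.02 to 0.11). Tubulins, which share sequence, had 3 of 11 higher and 5 lower.

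The same ratio was computed in the 5 deprivation media, each from its own libraries, for 3 h without methionine, glutamine, glucose, arginine or branched-chain amino acids (BCAA). Small subunit ribosomal proteins had medians of -1.61 without arginine, -1.20 without BCAA, -1.92 without glucose, -1.47 without glutamine and -1.61 without methionine, beside -0.93 in Control. Large subunit members lay at -1.69, -1.28, -2.02, -1.59 and -1.73 in the same order, beside -0.90. In none of these media were the medians as near 0 as in complete medium. Proteasome subunits stayed above the median of all genes in each medium, between 0.41 and 0.66. Ftl1 was at -2.83, -2.37, -2.47, -2.13 and -2.47 in the order above, and Rps27l at -3.87, -3.51, -3.29, -3.91 and -4.40. Tfrc, below 0 in Control, was above 0 in each deprivation (0.19, 0.14, 0.41, 0.35 and 0.74). Eprs1, at -1.10 in Control, was at -0.32, -0.29, -0.04, -0.17 and 0.17. These values stand beside each other with no test of their differences.

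The other control ratio of the series comes from cells held 3 h with the solvent DMSO, 3 total RNA and 3 polysome libraries that the labels call polyA RNA. Solvent, experiment and library chemistry differ together and cannot be told apart, so the test compares these sets of libraries only. Of 12716 genes tested on the 12 libraries, 51% had a different ratio (adjusted p under 0.05 for the interaction), 3536 lower and 2949 higher in Control. Some lists differed mostly in 1 direction and others in both, with 8 cholesterol genes lower and 7 higher in Control. Ribosomal proteins had medians of 0.26 (small subunit) and 0.36 (large subunit) in DMSO, and 32 of 32 and 48 of 49 had a lower ratio in Control. Nuclear-encoded oxidative phosphorylation had a median of 0.82 in DMSO, with 72 of 76 lower in Control, and mitochondrial ribosomal proteins 0.81, with 69 of 76 lower. Replication histones had a median of 1.63 there. Long chromatin regulators had a median of -0.76 in DMSO, with 33 of 38 higher in Control, and mRNA decay proteins -0.55, with 22 of 36 higher.

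Single genes of the lists also differed between the sets. The depleted mRNA Ap3s1 was at -3.19 in Control and -2.41 ± 0.14 in DMSO, and Cnot7 at -1.49 and -1.97 ± 0.13. Psmd7, at 0.99 and 1.08 ± 0.09, was not called different (difference -0.09 ± 0.13, adjusted p = 0.579). Most proteasome subunits did differ, with 28 of 34 lower and 2 higher in Control (medians 0.53 in Control and 1.25 in DMSO). Gzmb, at 0.54 and 0.75 ± 0.11, was not called different either (difference -0.21 ± 0.15, adjusted p = 0.280). Of 15 granule genes 7 were lower and 1 higher in Control. Ago2 turned from 0.99 to -1.0 ± 0.13 (difference 1.99 ± 0.18, adjusted p = 6.84e-07) and Il12rb2 from 0.89 to -1.09 ± 0.12. Bax went the other way, from -1.25 to 0.30 ± 0.12 (difference -1.56 ± 0.17, adjusted p = 2.25e-06), and Ftl1 was lower in both, at -2.81 and -1.15 ± 0.12. Control ratios in this fit differ slightly from those above because fewer libraries set the scaling.

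**Figure D4:**
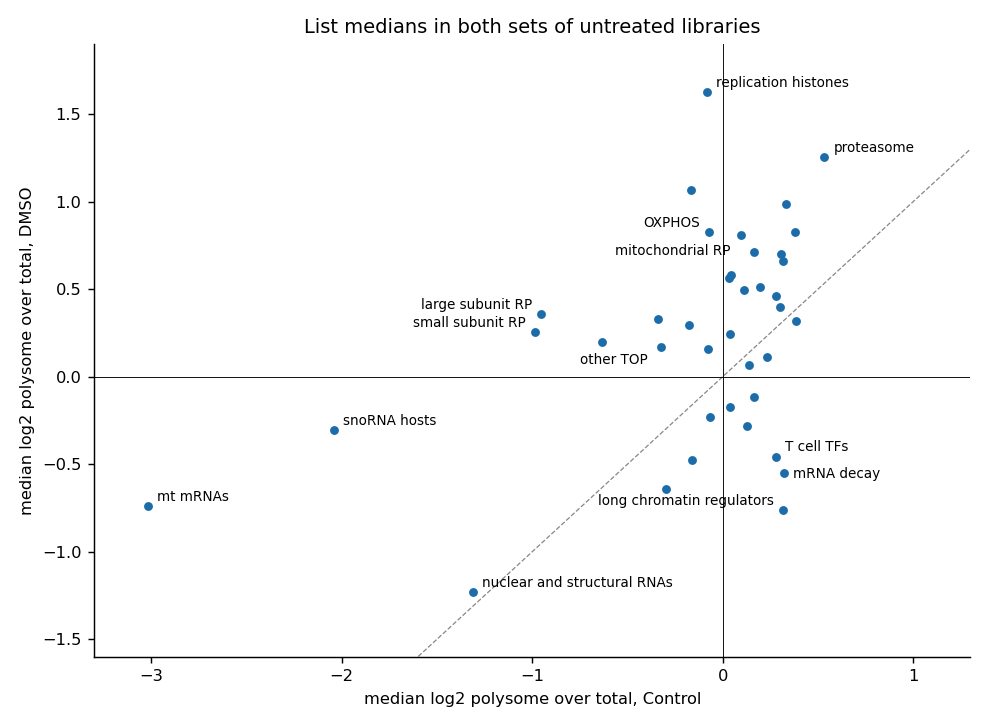
Median log2 ratio of polysome over total RNA in Control (x axis) and in DMSO (y axis), 1 point for each of 39 gene lists, with a dashed line of equal values. Ribosomal proteins are below 0 in Control and above 0 in DMSO, and long chromatin regulators lie on the opposite sides (0.32 and -0.76).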

How the data were processed

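The deposited values are raw counts by Ensembl gene, not normalized, for 60 of the 78 libraries. The 18 monosome libraries were not analysed here. The submitters' processing notes name STAR, HTSeq, Trimmomatic, edgeR, FastQC and MultiQC with build GRCm39, without versions or roles, and the strand setting and the criterion for keeping genes are not given in the sources used here. The table held 14695 genes, 449 without a symbol.

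Counts were fitted with edgeR 4.0.16 and limma 3.58.1 in R 4.3.3: filterByExpr with a minimum count of 10, TMM scaling, a robust quasi-likelihood fit over all 36 total RNA and polysome libraries of the nutrient experiment (12 groups), and the contrast of Control polysome over Control total RNA. Benjamini-Hochberg adjustment of p-values ran over all 13072 genes. Control and DMSO ratios were compared by the interaction term over 12 libraries. Alternatives were RLE size factors, plain totals, TMM without ribosomal, mitochondrial and structural RNA, other filters, the 6 libraries alone, the lysate as a block, DESeq2 1.42.0 and leaving out libraries. On counts simulated for the Control contrast over 13010 genes, 91% of 100 genes changed by 0.5 (log2) and 100% of 100 genes changed by 1 were recovered, with 15 false calls. All other genes, the rare ones included, were simulated without a change, and the changes went up and down in equal number. The simulation therefore does not measure the error of the contrast itself, in which 65.4% of genes were called, with a long lower tail.

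Input and polysome RNA of 1 number come from 1 lysate per the labels' protocols, so the numbers pair libraries. Residuals of same-numbered libraries correlated at 0.73, 0.23 and 0.01, but total RNA 2 correlated at 0.48 with polysome 3 and total RNA 3 at 0.55 with polysome 2. For lysates 2 and 3 the pairing thus rests on the labels only. Replicates differed by more than counting noise (chi-square per gene 3.49 to 44.5). The protocol added 20 pg of luciferase RNA to each sample, but scaling to it was not used here.

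The 43 gene lists, their members and the rule for named genes were chosen with earlier results of these data known, and 8 further lists were added after their values were seen, so lists are described by counts and medians with no test. Named genes were the 12 highest and 12 lowest called ratios at a mean of at least 10 CPM with groups that do not overlap (ribosomal proteins, mitochondrial genes and replication histones left out), list members with the largest ratios in either direction (up to 5, and up to 3 opposite to most) and the 5 most counted genes. Other names were chosen after their values were seen, to complete small counts or for the 12 lowest protein-coding genes. Gene classes and sequences came from RefSeq (GRCm38.p6), matched by symbol. Some genes that the rule names are not reported here.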

Additional observations from a re-analysis of the deposited data

Results flagged for a closer look

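The values below are differences between the 2 control sets of libraries, Control minus DMSO, in the log2 ratio of polysome over total RNA. Each came from edgeR's test of the difference itself. Solvent, experiment and library chemistry (total RNA in Control, polyA RNA in DMSO) cannot be told apart. In all, 6485 genes differed.

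These 4 non-coding RNAs had a lower ratio in Control. Rn7sk differed by -6.12 ± 0.24 (adjusted p = 3.81e-11), with 4.47, 6.30 and 6.64 CPM in DMSO total RNA where Control total RNA held 9856, 11962 and 11415 CPM. Snhg20 differed by -3.64 ± 0.37 and Mir142hg by -2.59 ± 0.51. Bc1 differed by -2.58 ± 0.98 (adjusted p = 0.0492), and its adjusted p ran from 3.4e-05 to 0.337 over the alternatives.

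The rare ribosomal protein entry Rpl24 differed by -2.99 ± 1.04 (adjusted p = 0.0229), and without DMSO polysome replicate 3 by -1.40 (adjusted p = 0.455). Its DMSO libraries held at most 0.478 CPM.

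The chromatin and transcription regulators Hivep3, Zmiz1 and Setd1b had higher ratios in Control. Hivep3 differed by 3.14 ± 0.32 (adjusted p = 3.29e-06), with 192, 179 and 212 CPM in DMSO total RNA and 77.5, 39.6 and 69.3 CPM in DMSO polysome RNA. Zmiz1 differed by 2.66 ± 0.29 and Setd1b by 2.51 ± 0.27. In each of these genes the 3 Control lysates lay above 0 and the DMSO polysome libraries below the DMSO total RNA libraries.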

How the results depend on the processing

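Called genes numbered 8550 (4892 higher, 3658 lower), and 7388 to 8220 when 1 library or 1 lysate of Control was left out. Other settings gave 6593 (CPM of at least 5 in 3 libraries, 9733 genes tested) to 8930. RLE size factors lowered the median of all genes by 0.0853 and split the calls 4111 higher and 4081 lower, DESeq2 4131 and 4069, and the 6 libraries alone 3851 and 3810, so the excess of higher calls depends on the setting. The stricter filter lowered the median by 0.101. With the lysate as a replicate block there were 8930 calls (5128 higher, 3802 lower), and 8531 with the block on the 6 libraries alone (7661 without it). The pairing by lysate cost Mirt1 its call (adjusted p = 0.0555), and Slc11a2 its call on the 6 libraries alone. The Control and DMSO ratios differed in 6485 genes, in 5845 to 6777 when 1 library was left out, and in 6912 with the replicate block. Among the genes and counts followed through these settings, none changed sign. Without replicates 1, 2 and 3, 5, 8 and 10 lost their call, and under each other setting at most 7 did, with plain library totals none. The comparison with protein length was not run. Rare genes, such as Rpl24, Hspa1b and the joining segments, are limited by their counts.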

Other observations

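A few non-coding RNAs were higher in polysome RNA, named here after their values were seen. The guide RNA Scarna6, of the small RNAs that direct modification in Cajal bodies, was higher in polysome RNA, with 29.2, 28.8 and 33.0 CPM in total RNA and 46.3, 43.5 and 44.5 CPM in polysome RNA (0.56 ± 0.17, adjusted p = 0.00483 in edgeR's test). Of 8 genes that RefSeq classes as guide RNA 2 were higher, Scarna6 and Gm25395 (0.54 ± 0.17), and Gm22009 was lower (-1.33 ± 0.14). Among the 8 long non-coding RNA genes called higher, Brip1os was the most counted, with 62.5, 65.8 and 71.4 CPM in total RNA and 81.2, 96.4 and 91.9 CPM in polysome RNA (0.43 ± 0.07). Neither gene's groups overlapped.

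Entries that take reads of ribosomal RNA (Rn18s-rs5, Mir6236 and Lars2) summed to 0.0110, 0.0167 and 0.0114% of total RNA counts in lysates 1 to 3 and to 0.0584, 0.0278 and 0.0109% of polysome counts.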
